A study of Mus musculus with 6 samples.

Results

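Each microRNA (miRNA) hairpin can release a mature RNA from its 5p arm and another from its 3p arm, and the 8 mature RNAs described here are the paired arms of miR-361, miR-423, miR-139 and miR-574. They were taken by name from a deposited table of 1927 mature miRNAs. The 4 hairpins were chosen by the counts of their arms in these same libraries, which were at similar levels, so the levels of the arms are given as a description. The difference of a ratio between fractions took no part in that rule and is tested. Yet the hairpins were chosen with earlier results of these data known, so the p-values may not be free of that choice. All 8 arms passed the filter on low counts, which asks for about 10 counts, scaled to depth, in at least 3 libraries of any fraction. Among the 145 miRNAs that passed it, 15 hairpins had both arms present as separate rows, these 4 included. By the mean of their log2 ratio of 5p over 3p counts over 6 libraries, the 4 hairpins ran from -1.12 (miR-139) to 1.57 (miR-423), and 4 other hairpins lay inside that range (miR-142a, miR-434, miR-455 and miR-674). Just outside it were let-7d (2.59) and miR-30a (3.72) above and miR-126a (-3.05) and miR-140 (-3.89) below.

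The RNA came from extracellular vesicles, membrane-bound particles that cells release, from bone of untreated male Swiss-CD1 mice aged 8 weeks. Tibias and femurs were cleaned, their ends cut off, the marrow spun out and the bones crushed. Large vesicles (lEVs) were pelleted at 10000 g, and small vesicles (sEVs) were collected from what remained at 100000 g on a 30% sucrose cushion, with 3 libraries of each. Vesicle size, spin and cushion differ together between the fractions and cannot be told apart, and the labels do not say whether replicates were separate animals, pools or preparations, so the p-values measure the spread between these libraries only.

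The libraries held between 47441 and 114331 counts, and the 8 arms took between 0.222% and 0.247% of the counts in lEVs and between 0.155% and 0.178% in sEVs. The library of lEVs replicate 1 was the smallest and stood apart from the other lEVs libraries (TMM factor 0.853, against 1.18 and 1.12), so results that turn on it are given with and without it. Among miRNAs typical of cell types, a mesenchymal list of 4 miRNAs took between 10.8% and 12.2% of lEVs counts and between 11.6% and 13.3% of sEVs counts. The 3 myeloid miRNAs took between 4.08% and 5.60% in lEVs and between 4.34% and 4.80% in sEVs, and the 2 cartilage miRNAs between 1.41% and 2.03% in lEVs and between 1.09% and 1.18% in sEVs. The 2 endothelial miRNAs took between 6.52% and 7.80% in lEVs and between 8.24% and 8.60% in sEVs, and the lymphoid miR-150-5p between 0.0864% and 0.134% in lEVs and between 0.179% and 0.215% in sEVs. As shares of all counts, the cartilage list, which is the arms of miR-140, was thus lower in each sEVs library than in each lEVs library. The endothelial and lymphoid shares were higher. Scaled with TMM factors, miR-140-3p and miR-140-5p overlapped between fractions (edgeR adjusted p = 0.253 and 0.119). miR-455-3p, of a hairpin known from cartilage, had a log2 fold change of 0.83, sEVs over lEVs (edgeR adjusted p = 0.124). Its partner miR-455-5p had -0.10 (edgeR adjusted p = 0.869). The endothelial miR-126a-3p and miR-126a-5p had 0.30 and 0.37 (edgeR adjusted p = 0.126 and 0.131). The lymphoid miR-150-5p had 0.91 (edgeR adjusted p = 0.00268). The part of cell types in the results was not tested. The 3 skeletal muscle miRNAs took between 1.78% and 2.58% in lEVs and between 1.67% and 2.00% in sEVs. The 4 erythroid miRNAs took between 0.544% and 0.746% in lEVs and between 0.438% and 0.568% in sEVs. For both lists the fractions overlapped. The liver miRNA miR-122-5p was at 0 in all 6 libraries. In such bulk material, fewer vesicles that carry a miRNA and fewer copies per vesicle cannot be told apart.

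A miRNA hairpin is cut by Drosha and then by Dicer into a short duplex of its arms. As a rule, an Argonaute protein keeps one strand of the duplex as the guide, which silences messenger RNAs that match its seed, and the other, passenger strand is degraded. Strand choice is known to favour the strand whose 5′ end is less tightly paired and which begins with U or A. Since both arms come from the same precursor, their ratio within a library does not depend on transcription of the hairpin or on how libraries are scaled to each other.

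The mature sequences show how unlike the arms of a hairpin are, and so which bases are available for target pairing. Seeds (bases 2 to 8) are in capitals, 5′ to 3′, and all 8 were found in RefSeq's miRNA records on GRCm38.p6.
miR-361-5p: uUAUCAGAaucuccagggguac
miR-361-3p: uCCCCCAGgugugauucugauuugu
miR-423-5p: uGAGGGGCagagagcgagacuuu
miR-423-3p: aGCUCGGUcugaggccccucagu
miR-139-5p: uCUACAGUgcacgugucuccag
miR-139-3p: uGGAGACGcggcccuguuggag
miR-574-5p: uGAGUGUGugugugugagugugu
miR-574-3p: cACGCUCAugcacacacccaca
No 2 of the 8 arms shared a seed. The only other miRNA of the table with one of these seeds among those with a RefSeq sequence was miR-6921-5p, with that of miR-423-5p, and it was at 0 in every library. miR-574-5p is a run of G and U, with 11 G, 10 U, 2 A and 0 C, while miR-574-3p holds 11 C, 7 A, 2 G and 2 U. Stretches of 18 bases of miR-574-5p also occur in annotated transcripts of 61 other genes, and those of the other 7 arms in none. Reads of GU repeats from such transcripts and reads of miR-574-5p cannot be told apart where they share these bases, and their part in its counts was not tested.

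The hairpins, with the mature arms in capitals, show where each arm sits.
miR-361: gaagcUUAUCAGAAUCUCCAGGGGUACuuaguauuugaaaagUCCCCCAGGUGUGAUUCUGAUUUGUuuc
miR-423: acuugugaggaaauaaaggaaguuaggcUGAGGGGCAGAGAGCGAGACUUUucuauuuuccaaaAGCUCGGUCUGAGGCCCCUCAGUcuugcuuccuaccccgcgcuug
miR-139: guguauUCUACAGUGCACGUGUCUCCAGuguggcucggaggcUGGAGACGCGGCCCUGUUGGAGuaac
miR-574: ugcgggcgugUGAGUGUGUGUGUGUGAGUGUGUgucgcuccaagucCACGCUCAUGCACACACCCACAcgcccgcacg
On GRCm38, Mir361 lies at chromosome X, 113074824 to 113074893 (minus strand), in an intron of Chm, which encodes a Rab escort protein. Mir423 lies at chromosome 11, 77078064 to 77078172 (minus strand), in an intron of Nsrp1, a splicing regulator. Mir139 lies at chromosome 7, 101475376 to 101475443 (plus strand), in introns of the phosphodiesterase gene Pde2a and of the overlapping Gm45837. Mir574 lies at chromosome 5, 64970318 to 64970395 (plus strand), in an intron of Fam114a1. All 4 hairpins are thus intronic and on the strand of their host gene, with no overlapping exon in GENCODE M21 other than their own.

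Folding of the hairpins (RNAfold, minimum free energy) gave -28.6 kcal per mol for miR-361, -51.9 for miR-423, -35.6 for miR-139 and -55.6 for miR-574. Of the first 4 bases of the arm, 2 were paired in miR-361-5p and 3 in miR-361-3p, and 3 in miR-574-5p and 4 in miR-574-3p. In miR-423 and miR-139 all 4 were paired in both arms. In 6 of the 8 arms the first base was U, the exceptions being miR-423-3p (A) and miR-574-3p (C). Of the 120 tested miRNAs with a RefSeq sequence, 58.3% began with U.

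Both arms of miR-361, whose 5p arm has been studied as a regulator of the angiogenic factor Vegfa, showed no steady excess of either arm in lEVs, while the 5p arm was the more counted in every sEVs library. In lEVs replicates 1, 2 and 3, miR-361-5p had 5, 29 and 28 counts and miR-361-3p had 8, 18 and 25. In the sEVs replicates, in the same order, miR-361-5p had 28, 28 and 46 counts and miR-361-3p had 7, 11 and 16. The 5p arm thus held 38.5%, 61.7% and 52.8% of the hairpin's counts in lEVs and 80.0%, 71.8% and 74.2% in sEVs, and the 3 shares of one fraction did not overlap with the 3 of the other.

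Exact binomial 95% intervals of the single shares of miR-361, which cover counting error only, were wide and overlapped between many libraries. That of lEVs replicate 1, with 13 counts of both arms, ran from 13.9% to 68.4%, and that of sEVs replicate 3, with 62 counts, from 61.5% to 84.5%. The log2 ratio of 5p over 3p (0.5 counts added to each arm) was 0.07 ± 0.66 in lEVs and 1.58 ± 0.32 in sEVs (SD, n = 3 each). Counting error alone gives SDs of 0.57 and 0.51, so the libraries of a fraction spread about as much as counts of this size do.

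The ratio of miR-361 was higher in sEVs by 1.51 on the log2 scale, or 2.84-fold (SE 0.38, 95% interval 0.66 to 2.36). Fitted over all 15 hairpins with limma, the adjusted p was 0.0204 (Benjamini-Hochberg). The SEs of this fit come from the spread between libraries, shared in part over hairpins, and counting error was not entered separately. At counts this low, the SEs, intervals and adjusted p-values of the ratios may therefore be too small. In the limma fit 20% of the 15 hairpins passed an adjusted p of 0.05 in either direction, which is 3, and miR-361 and miR-574 were 2 of them. Both hairpins entered the fit with an arm, miR-361-3p or miR-574-5p, that passed the filter on low counts through its lEVs libraries. These arms were below the level of the filter in most sEVs libraries. The call of miR-361 was lost when single libraries were left out. Without lEVs replicate 1, where the 5p arm had its lowest count, the difference was 1.16 (limma adjusted p = 0.104). It was 1.55 without lEVs replicate 3, 1.33 without sEVs replicate 1 and 1.55 without sEVs replicate 3 (limma adjusted p = 0.159, 0.131 and 0.153). It held without lEVs replicate 2 (1.81, adjusted p = 0.0103) and sEVs replicate 2 (1.64, adjusted p = 0.0250).

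**Figure D1:**
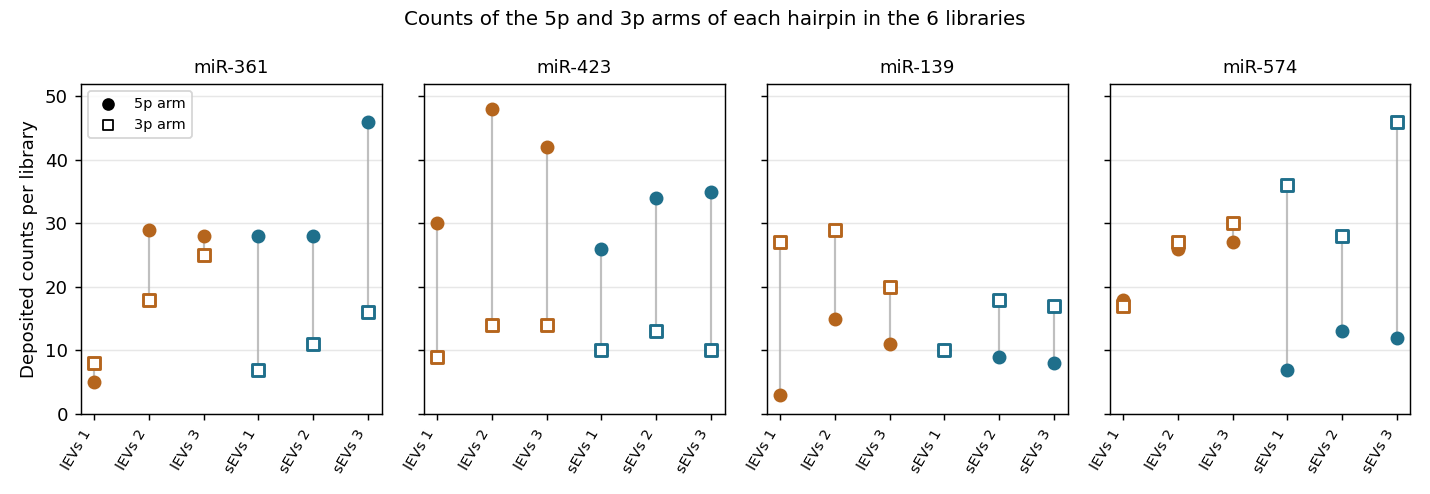
Deposited counts of the 5p arm (filled circles) and the 3p arm (open squares) of the 4 hairpins in each lEVs (brown) and sEVs (blue) library, with a grey line joining the arms of a library. The arms of miR-574 lie almost together in lEVs and apart in sEVs, those of miR-361 lie farther apart in sEVs, and both arms of miR-139 have 10 counts in sEVs replicate 1.

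For miR-574 the arms were counted nearly equally in each lEVs library, and here the 3p arm was the more counted in every sEVs library. In lEVs replicates 1, 2 and 3, miR-574-5p had 18, 26 and 27 counts and miR-574-3p had 17, 27 and 30. In the sEVs replicates miR-574-5p had 7, 13 and 12 counts and miR-574-3p had 36, 28 and 46. The 5p arm held 51.4%, 49.1% and 47.4% of the hairpin's counts in lEVs and 16.3%, 31.7% and 20.7% in sEVs, and the fractions did not overlap.

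The log2 ratio of miR-574 was -0.04 ± 0.12 in lEVs and -1.75 ± 0.62 in sEVs (SD, n = 3 each), where counting error alone gives SDs of 0.42 and 0.51. The lEVs libraries thus lay closer together than counting error alone gives. The ratio was lower in sEVs by a log2 difference of -1.71, or 3.27-fold (SE 0.36, 95% interval -2.51 to -0.91, limma adjusted p = 0.0109). In this fit the differences of miR-574 and, in the other direction, miR-361 were the largest in size of the 15 hairpins. That did not hold after thinning the libraries to equal depth. Nor did it hold without lEVs replicate 1, where let-7d (-1.45) had a difference larger in size than miR-361 (1.16). As for miR-361, the difference of miR-574 passed without lEVs replicate 2 and without sEVs replicate 2 (adjusted p = 0.0103 and 0.00209 by limma). With lEVs replicate 1 dropped the difference was -1.65 and no longer passed (adjusted p = 0.104 by limma). It was -1.77 with lEVs replicate 3 dropped, -1.45 with sEVs replicate 1 dropped and -1.64 with sEVs replicate 3 dropped, and passed in none of these (limma adjusted p = 0.129, 0.111 and 0.153).

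Of the hairpin miR-423, the 5p arm, which has been studied in plasma as a marker of heart failure, was the more counted in all 6 libraries. In lEVs replicates 1, 2 and 3, miR-423-5p had 30, 48 and 42 counts and miR-423-3p had 9, 14 and 14. In the sEVs replicates miR-423-5p had 26, 34 and 35 counts and miR-423-3p had 10, 13 and 10. The share of the 5p arm was 76.9%, 77.4% and 75.0% in lEVs and 72.2%, 72.3% and 77.8% in sEVs, so the fractions overlapped.

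The log2 ratio of miR-423 was 1.66 ± 0.10 in lEVs and 1.48 ± 0.24 in sEVs (SD, n = 3 each; 0.47 and 0.50 from counting error alone). The 5p arm was thus 3.16-fold above the 3p arm in lEVs and 2.79-fold above it in sEVs. The difference of the log2 ratio between fractions was -0.18 (SE 0.29; limma adjusted p = 0.841). Its 95% interval, -0.83 to 0.48, still allows a shift of the ratio of either sign. The libraries of each fraction spread less than counting error alone gives, so this interval may be too narrow.

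Of miR-139, whose 5p arm is described as a tumour suppressor and is lowered in many cancers, the 3p arm was counted at least as often as the 5p arm in all 6 libraries. In lEVs replicates 1, 2 and 3, miR-139-5p had 3, 15 and 11 counts and miR-139-3p had 27, 29 and 20. In the sEVs replicates miR-139-5p had 10, 9 and 8 counts and miR-139-3p had 10, 18 and 17. The share of the 5p arm was 10.0%, 34.1% and 35.5% in lEVs and 50.0%, 33.3% and 32.0% in sEVs. lEVs replicate 1 was low and sEVs replicate 1 high, and the other 4 libraries lay between 32.0% and 35.5%.

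The log2 ratio of miR-139 was -1.58 ± 1.21 in lEVs and -0.67 ± 0.58 in sEVs (SD, n = 3 each; 0.62 and 0.60 from counting error alone). The difference between fractions was 0.91 (SE 0.56, 95% interval -0.33 to 2.16, limma adjusted p = 0.288). Without lEVs replicate 1, with its 3 counts of the 5p arm, the difference was 0.21 (limma adjusted p = 0.867), so most of it rested on that library.

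**Figure D2:**
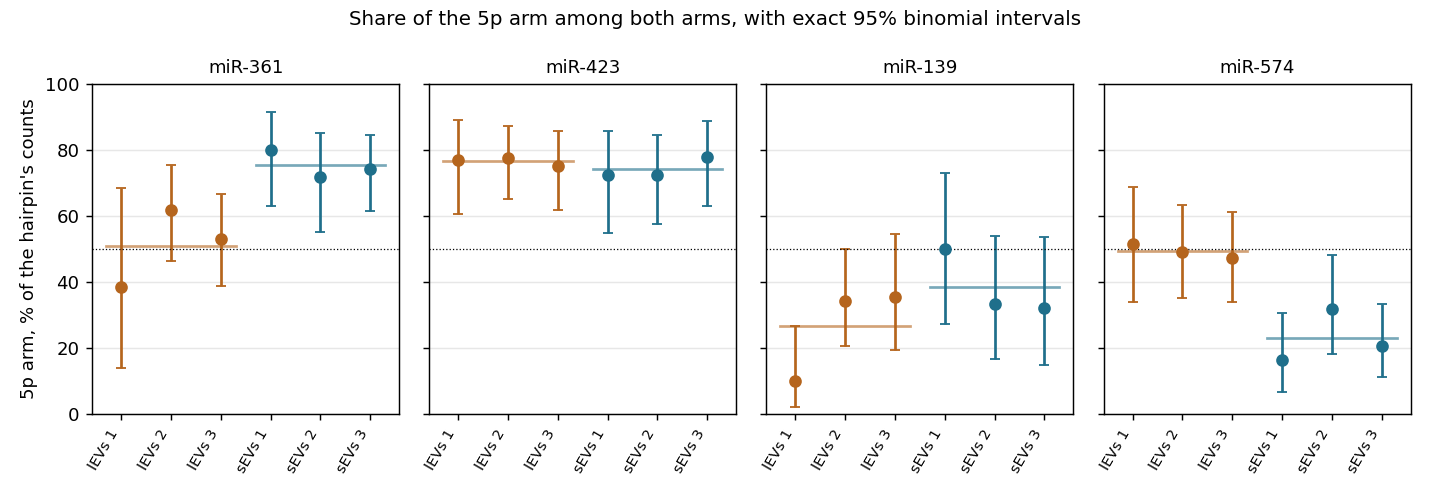
Share of the 5p arm in the counts of both arms (percent) in each lEVs (brown) and sEVs (blue) library, with exact 95% binomial intervals and a line at the mean of each fraction; the dotted line marks equal counts. The shares of miR-361 (38.5% to 61.7% in lEVs, 71.8% to 80.0% in sEVs) and miR-574 (47.4% to 51.4% and 16.3% to 31.7%) do not overlap between fractions, and those of miR-423 and miR-139 do.

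The order of the 4 hairpins by their ratio therefore differed between the fractions. In lEVs miR-423 stood highest and miR-139 lowest in each library, with miR-361 and miR-574 between them and overlapping within their spread. In sEVs miR-574 was lowest in each library and miR-139 the next, while miR-361 and miR-423 held the top and overlapped (1.31 to 1.93 and 1.34 to 1.76 on the log2 scale). The ranges of miR-574 (-2.28 to -1.08) and miR-139 (-1.04 to 0.00) nearly met.

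Over all 15 hairpins the median difference of the log2 ratio was -0.03, and the median size of the difference regardless of sign was 0.46. Over the 4 hairpins, which are among the 15, these medians were 0.37 and 1.21. A ratio of few counts varies more between libraries. Summed over arms and libraries, the 4 had between 177 and 287 counts, against 41241 for miR-126a, 8697 for miR-142a and 121 for miR-455. The part of depth in these medians was not tested. Ratios of lEVs and sEVs libraries did not overlap in 33.3% of the 15 hairpins, against 2 of the 4 described here. The third hairpin past the threshold was miR-455, known from cartilage, whose ratio was lower in sEVs by a log2 difference of -0.97 (SE 0.30; limma adjusted p = 0.0441). It passed in 1 of 12 alternative analyses. A list of 26 other hairpins from which both arms are often reported had 7 members tested, of which miR-455 alone passed. Of the 7, 3 had a difference above 0 and 4 below, with a median of -0.01. The list did not hold the tested hairpins miR-99b, let-7d, miR-223 and miR-674, whose differences were 0.96, -1.10, -0.80 and -0.18. Its median does not describe those hairpins.

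**Figure D3:**
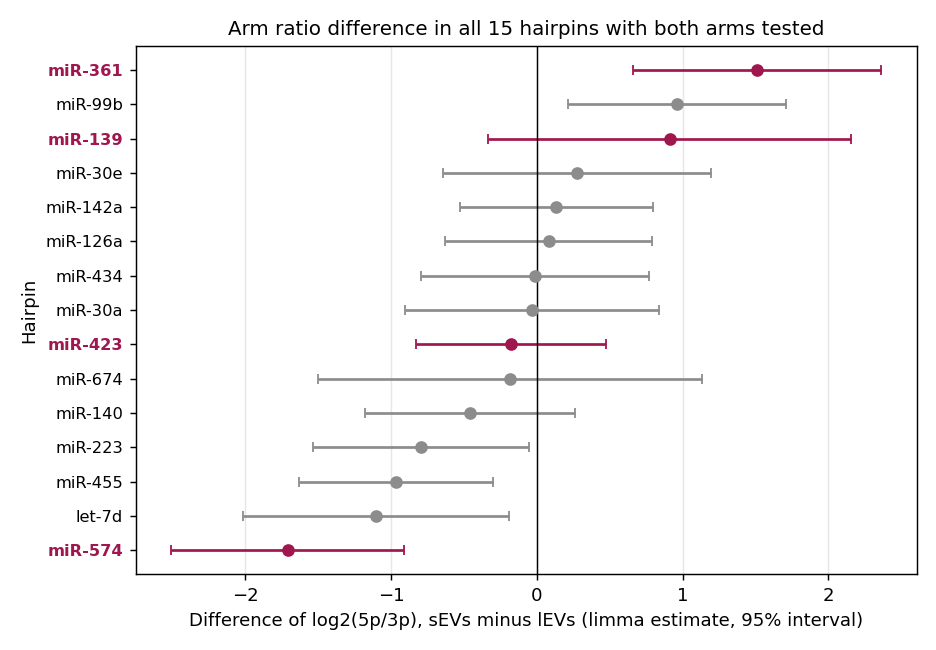
Difference between sEVs and lEVs in the log2 ratio of 5p over 3p counts, as limma estimates with 95% intervals, for all 15 hairpins with both arms tested; miR-361, miR-423, miR-139 and miR-574 are in red. The estimates for miR-361 (1.51) and miR-574 (-1.71) lie at the ends of the 15, with miR-139 at 0.91 and miR-423 at -0.18.

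The abundance of each arm was also compared between fractions, in CPM, which put libraries of unlike depth on the same scale (here with TMM factors) and in which a count stands for a short RNA whatever its length. In the quasi-likelihood fit of edgeR, 17.2% of the 145 miRNAs passed an adjusted p of 0.05 (Benjamini-Hochberg), and of the 8 arms 1 passed, miR-574-5p. Its values were 447, 240 and 280.2 CPM in lEVs replicates 1, 2 and 3 and 97.1, 138 and 108 CPM in those of sEVs, with no overlap. The log2 fold change was -1.38 (SE 0.33; edgeR adjusted p = 0.0225). As stated for the ratios, miR-574-5p passed the filter on low counts through its lEVs libraries and was below that level in most sEVs libraries. Its partner miR-574-3p had 422, 249 and 311 CPM in lEVs and 499, 297 and 415 CPM in sEVs, which overlapped; the log2 fold change was 0.36 (SE 0.28; edgeR adjusted p = 0.362). DESeq2 did not call miR-574-5p (adjusted p = 0.0999), nor did edgeR with lEVs replicate 3 dropped (adjusted p = 0.0700). The same was seen for edgeR with sEVs replicate 1 (adjusted p = 0.0730) and with sEVs replicate 3 dropped (adjusted p = 0.0629).

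Neither arm of miR-361 passed on its own, and their estimates had opposite signs. miR-361-5p had 124, 268 and 291 CPM in the lEVs libraries and 388, 297 and 415 CPM in those of sEVs, so its values in sEVs lay above those in lEVs. Its log2 fold change was 0.58 (SE 0.29; edgeR adjusted p = 0.177). miR-361-3p had 198.6, 166 and 259 CPM in lEVs and 97.1, 117 and 144 CPM in sEVs, so its values in sEVs lay below. Its log2 fold change was -0.77 (SE 0.32; edgeR adjusted p = 0.120). As a share of all counts, the arms of miR-361 together took 0.0465% ± 0.0173 in lEVs and 0.0466% ± 0.00748 in sEVs (SD, n = 3 each). The lEVs mean rested on replicate 1, with 0.0274% against 0.0508% and 0.0612% in replicates 2 and 3, and without it was 0.0560%. Without that library the log2 fold changes were 0.39 for miR-361-5p and -0.79 for miR-361-3p (edgeR adjusted p = 0.257 and 0.149).

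The arms of miR-423 and miR-139 all had log2 fold changes below 0, and none passed. For miR-423-5p the value was -0.57 (SE 0.25; 541 ± 176 CPM in lEVs and 346 ± 26.0 CPM in sEVs; edgeR adjusted p = 0.132) and for miR-423-3p -0.36 (SE 0.35; 166 ± 50.4 and 122 ± 27.8 CPM; edgeR adjusted p = 0.453). miR-139-3p had -1.05 (SE 0.46; 382 ± 252 CPM in lEVs and 161 ± 27.1 CPM in sEVs; edgeR adjusted p = 0.134), and miR-139-5p, the least counted of the 8, had -0.24 (SE 0.40; 109 ± 32.3 and 102 ± 33.7 CPM; edgeR adjusted p = 0.666). Without lEVs replicate 1 the estimates of miR-423-5p, miR-423-3p and miR-139-3p were smaller in size and that of miR-139-5p larger. The log2 fold changes were then -0.36 for miR-423-5p and -0.20 for miR-423-3p (edgeR adjusted p = 0.229 and 0.786). They were -0.56 for miR-139-3p and -0.37 for miR-139-5p (edgeR adjusted p = 0.226 and 0.653). The values of miR-423-5p and miR-139-3p in lEVs lay above those in sEVs. Between-fraction overlap was absent for 44.1% of the 145 miRNAs and for 5 of the 8 arms. Among the 5 were miR-361-3p and miR-574-5p, which had passed the filter on low counts through their lEVs libraries.

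Scaling bore on these values, though not on the ratios. With library totals in place of TMM factors, the median over the 145 miRNAs of the log2 fold change moved from -0.04 to -0.19, and the calls from 12 higher in sEVs and 13 higher in lEVs to 11 and 24. Then edgeR also called miR-423-5p (-0.70, adjusted p = 0.0436) and miR-139-3p (-1.17, adjusted p = 0.0494) as lower in sEVs. No arm changed its sign under the 11 alternatives of the abundance fit. As shares of all counts, the summed arms of miR-423 took 0.0713% ± 0.00953 in lEVs and 0.0448% ± 0.00471 in sEVs, those of miR-139 0.0489% ± 0.0138 and 0.0252% ± 0.00289, and those of miR-574 0.0656% ± 0.00824 and 0.0497% ± 0.00790 (SD, n = 3 each). Without lEVs replicate 1 the lEVs means were 0.0658% for miR-423, 0.0417% for miR-139 and 0.0615% for miR-574.

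**Figure D4:**
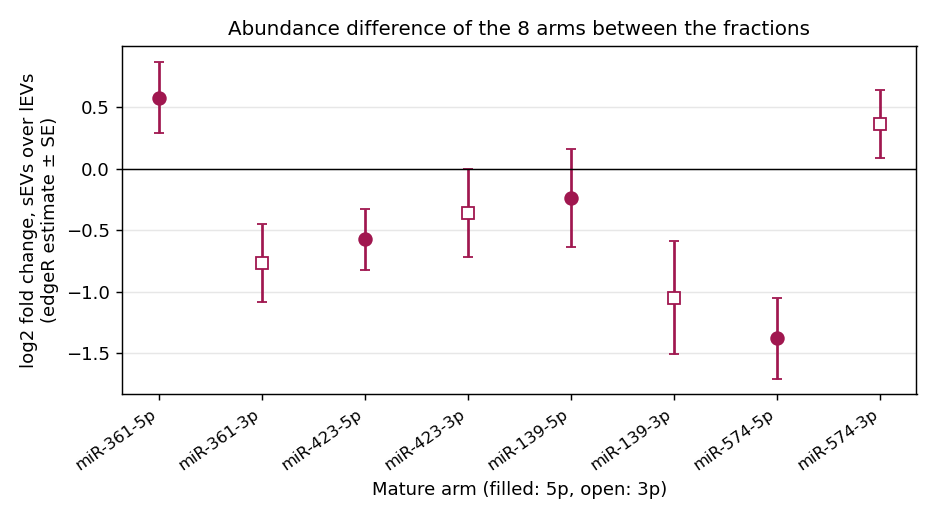
Log2 fold change of each arm between sEVs and lEVs, as edgeR estimates with standard errors (filled circles 5p, open squares 3p). The arms of miR-361 (0.58 and -0.77) and of miR-574 (-1.38 and 0.36) lie on opposite sides of 0, and those of miR-423 and miR-139 lie below 0.

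The motifs GGAG, CCCU and GGCU, short sequences that have been linked to loading of miRNAs into small vesicles, were searched in the mature sequences as written, and presence alone was counted. GGAG was found in miR-139-3p and in 8.06% of the 273 miRNAs above 0 with a RefSeq sequence. CCCU was found in miR-423-3p and miR-139-3p and in 9.52% of the 273, and GGCU in none of the 8 arms and 12.5% of the 273. UGUGUG, the repeat of miR-574-5p, was found in that arm alone of the 8 and in 1.47% of the 273. A match describes the letters and marks no binding site.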

How the data were processed

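The authors deposited raw counts per mature miRNA and library for 6 small RNA libraries. Per the labels' protocols, they were made with a QIAseq miRNA kit and sequenced as single reads of 75 bases on a MiSeq. The submitters' processing notes name GRCm38 as the build and list DESeq2 1.38.2 and R 4.2.2. Which aligner and counting rule were used, and whether strand or molecular identifiers were, is not given in the sources used here. Library kits capture RNAs of different sequence unequally, so a ratio between arms is a ratio of counts, not of molecules.

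Columns were matched to libraries by the labels' descriptions. The 8 arms and the lists were chosen with earlier results of these data known. Abundance was fitted by quasi-likelihood with TMM factors in edgeR 4.0.16 (R 4.3.3), after filterByExpr with a minimum of 10 counts and a minimum total of 15, with standard errors as the absolute log2 fold change over the root of F. Ratios of arms, log2((5p + 0.5)/(3p + 0.5)), were tested with limma 3.58.1 over the 15 hairpins whose arms carry the same name, share no row with another miRNA and both passed the filter. The Benjamini-Hochberg adjustment ran over all miRNAs or all hairpins tested, with calls at 0.05. Both fits were tested on simulated data. For ratios, the planted shifts were larger than any difference found here. The fit recovered 91.7% of them, with 0.2 false calls per draw. Smaller shifts were not simulated, so the recovery of differences of the size found here is not known. Intervals of shares are exact (Clopper-Pearson), at 95%. Besides the 8 arms, the naming rule took hairpins nearest to them in level or in pattern over libraries, those past the threshold, and the 4 most counted of the list. Hairpins were folded with ViennaRNA 2.7.2. Of 312 miRNAs above 0 in rows of their own, 273 matched a RefSeq sequence by name.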

Additional observations from a re-analysis of the deposited data

How the results depend on the processing

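The differences of the log2 ratio in miR-361, miR-423, miR-139 and miR-574 kept their sign in 47 of 48 recomputations. Those without the filter on low counts and with the replicate block cannot alter a difference, so their signs were fixed in advance. The sign that changed was that of miR-423, at 0.27 after thinning every library to 47441 counts (1 draw). After that thinning 0 hairpins passed limma's adjusted threshold and 3 an unadjusted p of 0.05, with 0.97 for miR-361 and -1.04 for miR-574 (limma adjusted p = 0.307 and 0.245), and the mean ratio in lEVs was 1.45 for miR-423 and -0.16 for miR-574. Without the filter on low counts 67 hairpins were tested and 0 passed (8 at an unadjusted p of 0.05), with 1.51 for miR-361 and -1.71 for miR-574 as before (limma adjusted p = 0.339 and 0.301). The abundance fit then gave 53 calls in place of 25. A pseudocount of 5 counts gave mean ratios of miR-423 of 1.37 in lEVs and 1.19 in sEVs. edgeR's diffSpliceDGE gave 1.35 for miR-361 and -1.74 for miR-574 (adjusted p = 0.0150 and 0.00432). Leaving out 1 library gave between 16 and 52 abundance calls (16 without lEVs replicate 3, 52 without lEVs replicate 1) and between 0 and 4 ratio calls. The 0 came without lEVs replicate 1, lEVs replicate 3, sEVs replicate 1 or sEVs replicate 3, with between 3 and 5 hairpins at an unadjusted p of 0.05 in limma. Over all 6 such fits, differences ran from 1.16 to 1.81 for miR-361 and from -2.05 to -1.45 for miR-574. The cause of the lost calls was not tested. Replicate numbers were not shown to pair the libraries (correlations of deviations -0.04, 0.02 and 0.35). With the replicate block, 2 ratio calls (limma adjusted p = 0.0255 for miR-361 and 0.0165 for miR-574) and 26 abundance calls were made. Each arm had 3 to 48 counts in a library, which limits the precision of a single ratio.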

Other observations

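Of the other hairpins with both arms tested, 3 had a difference whose 95% interval left out 0 without passing the adjusted threshold over the 15, in both directions. For miR-99b, named after its values were seen, the log2 ratio of 5p over 3p was 3.58 ± 0.10 in lEVs and 4.54 ± 0.51 in sEVs (SD, n = 3 each; difference 0.96, SE 0.34; limma adjusted p = 0.0626), and the fractions did not overlap. For let-7d, of the let-7 family, the ratio was 3.14 ± 0.65 in lEVs and 2.04 ± 0.51 in sEVs (SD, n = 3 each; difference -1.10, SE 0.41; limma adjusted p = 0.0675). For miR-223, a miRNA of granulocytes and monocytes, the difference was -0.80 (SE 0.33; limma adjusted p = 0.0962). let-7d and miR-223 passed when 5 hairpins with at least 30 counts per arm on average were tested (limma adjusted p = 0.0101 and 0.0467) and in diffSpliceDGE of edgeR (0.00493 and 0.0119). miR-361, miR-423, miR-139 and miR-574 were not among the 5, since the less counted arm of each was below 30 counts on average.

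Likeness of pattern was measured as the root mean square difference of the 6 log2 ratios, each hairpin centred on its own mean, among those 5 hairpins. miR-423 was closest to miR-126a (0.28) and miR-142a (0.31), and miR-574 to miR-223 (0.62) and miR-140 (0.69). For miR-361 (0.75 and 0.78) and miR-139 (0.72 and 0.76) the nearest were also miR-142a and miR-126a.

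Of 13 tested hairpins with RefSeq sequences for both arms, the more counted arm began with U in 8 and the less counted arm in 4. In miR-574 the more counted 3p arm begins with C and the 5p arm with U. These are counts over few hairpins, given as a description.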
